A study of Mus musculus with 12 samples.

Results

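The regions described here are ATAC-seq peaks that were more accessible in every tumour sample than in either normal sample of a mouse skin carcinoma study. ATAC-seq uses the Tn5 transposase to insert sequencing adapters into open DNA, so that the count of a peak measures how accessible it is. Each peak's paired-end count was divided by the sample's total over all peaks and scaled to CPM, so that the CPM of all samples have the same total, and the value L = log2(CPM + 0.5) was taken. A peak was kept when the lowest L of the 4 tumour samples exceeded the highest L of the 2 normal samples by at least 1.5, a difference called the margin below. This kept 3973 of the 173565 peaks that the rule could choose, or 2.29%. Those 173565 are the peaks of chromosomes 1 to 19 among 177240 in all, less the peaks whose paired-end total exceeded 3 times their single-end total. Because the rule read the tumour and normal values, their difference is given as a description and has no test.

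The tumours were squamous carcinomas of female mice of mixed strain that carried, among their alleles, floxed p53 (p53fl/fl) and a Rosa-YFP reporter. In the Lgr5CreER mice the recombinase was driven by the Lgr5 promoter, which is active in hair follicle stem cells, and in the K14CreER mice by the K14 promoter, which is active in basal keratinocytes. The samples were Lgr5 Epcam- (1 sample), Lgr5 Epcam+ (2 samples, called 1 and 2), K14 Epcam+ (1 sample), and hair follicle (HF, 1 sample) and interfollicular epidermis (IFE, 1 sample) of WT mice. Epcam is an epithelial adhesion molecule, and the labels name antibodies against it and against CD45, CD31 and CD140a for the sort. The normal groups share neither the alleles nor the tumour state, so these cannot be told apart, and age, the number of animals per sample and the induction scheme are not in the labels used here. Every sample was sequenced once with single-end and once with paired-end reads. Paired-end counts in peaks lay between 16190042 (HF) and 32703016 (Lgr5 Epcam+ 1). Of paired-end reads in a peak or in none, 27.5% lay in peaks in HF and 34.0% in IFE. The share was 37.9% in Lgr5 Epcam-, 51.1% and 45.7% in Lgr5 Epcam+ and 38.7% in K14 Epcam+. The part of this difference in the chosen peaks was not tested. As a check of the sort, the peaks assigned to Epcam summed to 40.6 CPM in Lgr5 Epcam-, 178 and 180 CPM in Lgr5 Epcam+, 191 CPM in K14 Epcam+, 82.0 CPM in HF and 70.3 CPM in IFE.

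Most regulated chromatin lies away from gene starts, in enhancers that transcription factors open and keep open. AP-1, a dimer of Fos and Jun family proteins that binds the letters TGAGTCA, acts downstream of Ras and MAP kinase signalling and opens chromatin in keratinocytes after wounding and in skin carcinomas. Epithelial to mesenchymal transition (EMT) is the switch in which epithelial cells lose adhesion and gain motility, driven by factors of the Snai, Zeb and Twist families.

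Sequences of the peaks between genes were not analysed here, and promoters were read from RefSeq tables of the GRCm38.p6 build, which shares the coordinates of the files' mm10 build. Whole 300-base promoter windows lay inside 150 of the 3973 peaks. The 250 bases before the start site are shown for 4 of the genes whose promoter peak holds the AP-1 letters TGAGTCA or, read from the other strand, TGACTCA, which stand in capitals. These genes were chosen after their values were seen, because their products belong to proteolysis or clotting. Plaur is the urokinase receptor, Procr the endothelial protein C receptor, F3 tissue factor and Mmp1b a matrix metalloprotease. 
Plaur promoter, chr7:24462233-24462482, plus strand: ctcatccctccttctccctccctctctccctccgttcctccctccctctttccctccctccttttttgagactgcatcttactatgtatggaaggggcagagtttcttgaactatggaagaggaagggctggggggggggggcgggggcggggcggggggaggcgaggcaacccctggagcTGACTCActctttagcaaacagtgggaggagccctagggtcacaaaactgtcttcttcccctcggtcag
Procr promoter, chr2:155750967-155751216, plus strand: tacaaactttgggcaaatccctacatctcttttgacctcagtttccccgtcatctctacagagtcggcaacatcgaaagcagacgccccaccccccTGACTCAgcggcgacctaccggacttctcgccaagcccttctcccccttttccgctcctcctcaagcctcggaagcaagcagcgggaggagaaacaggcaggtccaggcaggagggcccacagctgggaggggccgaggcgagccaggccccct
F3 promoter, chr3:121723287-121723536, plus strand: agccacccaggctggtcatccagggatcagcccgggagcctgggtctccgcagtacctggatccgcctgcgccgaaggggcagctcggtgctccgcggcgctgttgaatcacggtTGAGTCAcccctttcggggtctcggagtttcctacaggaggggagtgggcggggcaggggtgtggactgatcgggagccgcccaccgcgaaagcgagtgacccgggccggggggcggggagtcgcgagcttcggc
Mmp1b promoter, chr9:7388027-7388276, minus strand: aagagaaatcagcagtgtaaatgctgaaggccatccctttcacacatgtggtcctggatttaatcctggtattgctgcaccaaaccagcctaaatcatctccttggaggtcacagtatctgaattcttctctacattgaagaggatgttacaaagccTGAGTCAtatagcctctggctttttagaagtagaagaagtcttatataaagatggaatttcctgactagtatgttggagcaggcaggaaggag
The AP-1 letters began 69 bases before the start site at Plaur, 154 at Procr, 135 at F3 and 93 at Mmp1b.

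MicroRNAs, short RNAs that repress messages matching their seed (bases 2 to 8), were also near the peaks. Mature forms of the 4 hairpins with the most such peaks within 50 kb are shown with the seed in capitals; miR-21 and miR-31 are long known as microRNAs raised in carcinomas. miR-29a-3p and miR-29b-3p have the same seed.
mmu-miR-31-5p: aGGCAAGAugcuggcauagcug
mmu-miR-21a-5p: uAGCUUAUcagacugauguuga
mmu-miR-29a-3p: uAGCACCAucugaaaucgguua
mmu-miR-29b-3p: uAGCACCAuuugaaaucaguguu

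Across the 3973 peaks, accessibility in tumours was that of strong peaks and in normals that of weak ones. The median was 13.6 CPM in Lgr5 Epcam-, 15.8 and 14.8 CPM in Lgr5 Epcam+ 1 and 2 and 14.5 CPM in K14 Epcam+, against 1.91 CPM in HF and 1.62 CPM in IFE. Over all 173565 peaks the medians ran from 2.08 to 2.71 CPM in the 6 samples. Ranked within its sample, the median chosen peak stood at percentile 89.6 to 89.7 in the tumours and at 34.3 in HF and 35.2 in IFE. The median margin was 1.93 and the largest 4.03. The rule sets a difference and not a closed state in normals: the chosen peak at the end of Angptl4 had 38.4 CPM in Lgr5 Epcam-, 35.0 and 32.3 CPM in Lgr5 Epcam+ and 31.2 CPM in K14 Epcam+, against 9.02 CPM in HF and 8.41 CPM in IFE. In mixed samples, fewer cells with an open region and less opening per cell cannot be told apart. Depth also bounds the normal values: a median of 31 counts per peak stood behind the HF values and 28 behind those of IFE, with under 10 counts at 38 peaks in HF and at 94 in IFE.

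**Figure D1:**
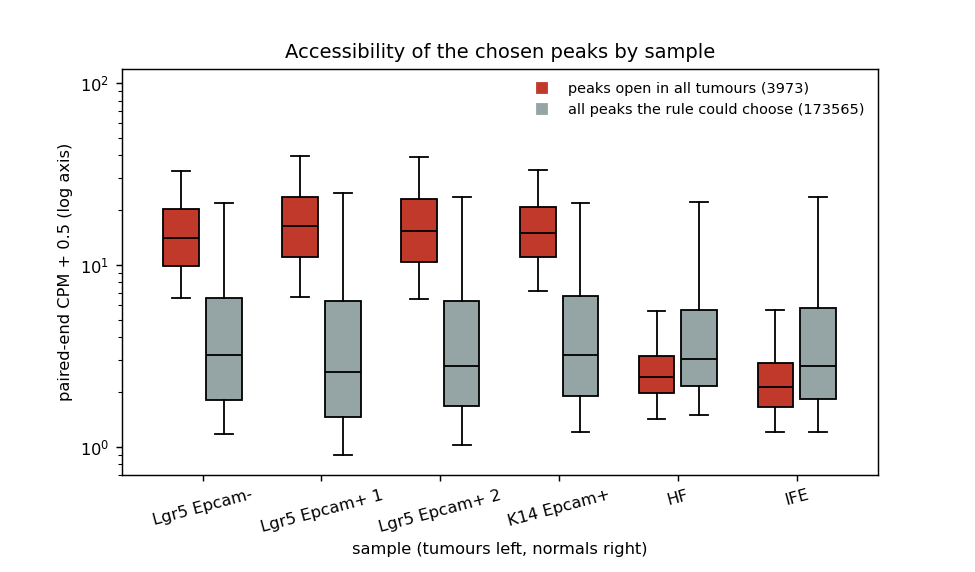
Paired-end CPM + 0.5 on a log axis in each sample, for the 3973 peaks open in all tumours (red) and the 173565 peaks the rule could choose (grey); boxes span the quartiles with the median as a line, and whiskers reach the 5th and 95th percentiles. The red medians run from 13.6 to 15.8 CPM in the tumours and are 1.91 CPM in HF and 1.62 CPM in IFE, and the grey medians from 2.08 to 2.71 CPM.

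The single-end runs of the same samples, which the rule used only to drop peaks with an excess of paired-end counts, also put the lowest tumour above the highest normal in 3970 of the peaks. Their median margin was 1.61, and 2332 peaks (58.7%) reached 1.5. That share was 65.2% of 3317 peaks on chromosomes 1 to 14 and 25.8% of 656 on chromosomes 15 to 19. There the single-end run of K14 Epcam+ was short of counts: chromosomes 15 to 19 took 10.3% of its counts, against 17.6% in its paired-end run and between 17.3% and 19.2% in the single-end runs of the other samples. The lowest tumour value came from Lgr5 Epcam- in 1567 peaks, from Lgr5 Epcam+ 1 in 577, from Lgr5 Epcam+ 2 in 1024 and from K14 Epcam+ in 805. Without the Lgr5 Epcam- sample the rule kept 6994 peaks, and without HF 7006, so these samples set the count more than the others did. Just inside the margin were peaks near BC052040, Dnajb6 and Rhoc, and just outside were peaks near Tgm2, Rnf152 and Col6a3, all at 1.5 when rounded. The Rhoc peak had 35.5 CPM in Lgr5 Epcam-, 22.8 and 22.3 CPM in Lgr5 Epcam+ and 21.0 CPM in K14 Epcam+, against 7.10 CPM in HF and 2.55 CPM in IFE. The excluded Tgm2 peak had 8.60 CPM in Lgr5 Epcam-, 17.6 and 23.3 CPM in Lgr5 Epcam+ and 15.5 CPM in K14 Epcam+, against 2.72 CPM in HF and 0.986 CPM in IFE. Peaks at the limit thus look alike on both sides of it.

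The chosen peaks lay at gene ends less often than all peaks. Of the 3973, 5.94% were within 1 kb of either end of a protein-coding gene, against 11.7% of all peaks, 43.5% lay inside a gene, against 45.8%, 29.4% were within 50 kb, against 25.4%, and 21.1% were farther away, against 17.2%. Of the 3846 with start sites in the table, 4.55% held one, with a 95% Wilson interval of 3.94% to 5.26%, against 7.84% of all peaks. Their median distance to a start site was 24.2 kb, against 20.6 kb. Peaks that met the same margin in the other direction, open in both normals and lost in all tumours, were placed alike. Of these, 5.97% were at gene ends and 21.6% farther than 50 kb from a gene, with a median distance to a start site of 24.0 kb. These positions are thus not particular to peaks raised in tumours. The share of a chromosome's peaks that was chosen ran from 1.17% on chromosome 9 to 2.97% on chromosome 5.

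Of the 12 largest margins at peaks with a gene within 50 kb, 3 were inside the gene, 7 near it and 2 at a gene end. The first was inside Mtss1, which codes for a protein that binds membranes and actin, at chr15:58997660-58998678. It had 29.5 CPM in Lgr5 Epcam-, 48.0 and 31.5 CPM in Lgr5 Epcam+ and 32.7 CPM in K14 Epcam+, against 1.11 CPM in HF and 1.33 CPM in IFE. Its margin was 4.03, and 2.98 in the single-end runs, where K14 Epcam+ gave 15.8 CPM. A peak 16.2 kb from Slc30a4, a zinc transporter, had 27.7 CPM in Lgr5 Epcam-, 26.9 and 32.9 CPM in Lgr5 Epcam+ and 26.6 CPM in K14 Epcam+, against 1.17 CPM in HF and 1.22 CPM in IFE. A peak inside Eps8, whose product links Egf receptor signalling to actin, had 41.4 CPM in Lgr5 Epcam-, 42.7 and 56.3 CPM in Lgr5 Epcam+ and 51.6 CPM in K14 Epcam+, against 2.72 CPM in HF and 1.68 CPM in IFE. These 3 peaks had margins of 3.70 or more. Adam12, a membrane metalloprotease, had a peak 6.11 kb from it at 21.9 CPM in Lgr5 Epcam-, 25.8 and 32.1 CPM in Lgr5 Epcam+ and 22.1 CPM in K14 Epcam+, against 1.24 CPM in HF and 1.16 CPM in IFE. The other genes among the first 12 were BC107364, Synpo, Vmp1, Nfatc2, Ifi204, Tmprss11c, Vmn1r43 and Arid5a, with margins from 3.50 to 3.87. In the single-end runs the 12 had margins from 2.17 (BC107364) to 3.06, and there Eps8 stood above Mtss1.

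Among peaks at gene ends, the largest margins were at Vmp1 (3.74), Ifi204 (3.64), Sh3tc2 (3.45), Trim12a (3.45) and Pth2r (3.35), followed by Krtap1-5, Podnl1, Gmnn, Sh3pxd2b and Dynap (2.88 to 3.20). Ifi204 is an interferon-inducible DNA sensor. Its peak had 48.2 CPM in Lgr5 Epcam-, 51.9 and 67.4 CPM in Lgr5 Epcam+ and 38.9 CPM in K14 Epcam+, against 2.66 CPM in HF and 1.62 CPM in IFE. Sh3pxd2b codes for an adaptor of podosomes, the matrix-degrading contacts of invasive cells. Its peak had 21.5 CPM in Lgr5 Epcam-, 30.0 and 30.4 CPM in Lgr5 Epcam+ and 33.1 CPM in K14 Epcam+, against 2.04 CPM in HF and 2.43 CPM in IFE.

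Chosen peaks within 50 kb of each other were joined into runs. Of the 3973, 1879 (47.3%) fell in 707 runs of 2 or more, and 41 runs held 5 or more. The same share was not computed for all peaks or for other sets of peaks. It therefore does not show that the chosen peaks are grouped more than peaks are in general. At the level of genes, 2120 of 17519 genes with a peak (12.1%) had at least 1 chosen peak assigned, 232 had 3 or more and 40 had 5 or more. Genes with more peaks have more chances: the median number of peaks was 15 for genes with a chosen peak and 5 for all genes. Vmp1, an endoplasmic reticulum protein of autophagy, led with 11 of its 27 peaks. Cubn (9), Cald1 (9), Nfatc2 (8), Pmepa1 (8), Dusp6 (7), Foxp1 (7) and Nav1 (7) came next, then Adam12, Adamts16, Ltbp1, Apbb2, Mical2, Gm4606 and Ctif with 6 each. Cald1 is the actin and myosin binding protein caldesmon, Nfatc2 a calcineurin-activated transcription factor and Pmepa1 a TGF-beta-induced inhibitor of Smad signalling. Over its 8 peaks Nfatc2 had a median of 26.8 CPM in Lgr5 Epcam-, 37.7 and 46.7 CPM in Lgr5 Epcam+ and 21.9 CPM in K14 Epcam+, against 2.38 CPM in HF and 2.75 CPM in IFE.

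The run with the most chosen peaks held 20 among 71 over 248 kb of chromosome 4 and contains the hairpin of Mir31. It spans chr4:88876083-89124285, contains Ifne and ends 13.1 kb from Mtap. The 20 had a median of 9.66 CPM in Lgr5 Epcam-, 16.6 and 11.5 CPM in Lgr5 Epcam+ and 13.5 CPM in K14 Epcam+, against 1.82 CPM in HF and 1.65 CPM in IFE. The 51 other peaks of the run were higher in tumours as well: 48 had a mean tumour L above the mean normal L, with a median difference of 1.24. Peaks in the 1 Mb on either side had a median difference of 0.40, and all peaks one of -0.05. A second run on the same chromosome, of 9 peaks at chr4:89381266-89530825, had 1.02 for its other peaks and 0.71 for its flanks. Its nearest genes were Cdkn2b (a cyclin-dependent kinase inhibitor) and Dmrta1, but no chosen peak of this run was within 50 kb of either. The flanks of the 2 runs overlap. Both runs thus stand in a stretch raised in tumours as a whole, and the part of DNA copy number in this was not tested.

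The run with the next most chosen peaks covered part of Vmp1 and the Mir21a hairpin within the Vmp1 span, with 12 of 25 peaks chosen over 76.4 kb (chr11:86576872-86653245). Its 12 peaks had a median of 22.6 CPM in Lgr5 Epcam-, 22.5 and 23.2 CPM in Lgr5 Epcam+ and 21.1 CPM in K14 Epcam+, against 1.98 CPM in HF and 1.62 CPM in IFE. Its flanks had a median difference of 0.18, below the 1.42 of the 13 other peaks in the run. The peak 1004 bases from the Mir21a hairpin is the gene-end peak of Vmp1, at 47.1 CPM in Lgr5 Epcam-, 33.0 and 27.6 CPM in Lgr5 Epcam+ and 32.7 CPM in K14 Epcam+, against 1.61 CPM in HF and 1.51 CPM in IFE.

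Of 895 microRNA hairpins with a peak within 50 kb, 219 (24.5%) had a chosen peak there, and so did 5383 of 29228 gene start sites with a peak within 50 kb (18.4%, without chromosome 18); both counts were made after the values were seen. Mir31 had 11 of 34 peaks, Mir21a 8 of 27, Mir29a 6 of 30 and Mir29b-1 6 of 29, the last pair being neighbours with nearly the same window. The chosen peak nearest to Mir29a, 89 bases from it, had 20.2 CPM in Lgr5 Epcam-, 28.7 and 24.7 CPM in Lgr5 Epcam+ and 19.2 CPM in K14 Epcam+, against 3.95 CPM in HF and 6.15 CPM in IFE. The microRNAs themselves were not measured.

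**Figure D2:**
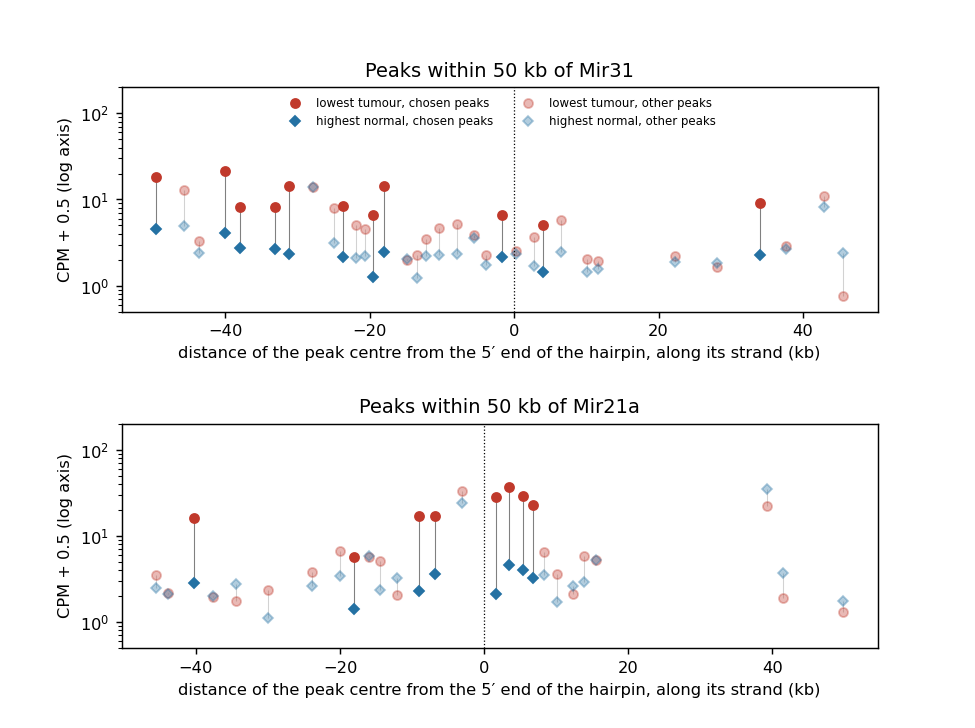
Lowest tumour value (circles) and highest normal value (diamonds) of every peak within 50 kb of the Mir31 and Mir21a hairpins, as CPM + 0.5 on a log axis, against distance in kb along the hairpin's strand; strong colours mark the chosen peaks and pale ones the rest. Of the 11 chosen peaks at Mir31, 9 lie upstream of the hairpin, and 4 of the 8 at Mir21a lie between 1.63 and 6.72 kb downstream.

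Genes of wound response held the largest share of chosen peaks of the 20 lists examined. The list holds keratins, cytokines and proteases that keratinocytes raise after injury; 27 of its 233 peaks were chosen (11.6%, against 2.29% of all peaks), at 12 of 24 genes, against 12.1% of all genes. The chemokine genes Cxcl1, Cxcl2 and Cxcl5, neutrophil attractants in a cluster on chromosome 5, had 4, 2 and 3. The Cxcl2 peak with the largest margin had 23.5 CPM in Lgr5 Epcam-, 46.8 and 39.9 CPM in Lgr5 Epcam+ and 35.4 CPM in K14 Epcam+, against 3.40 CPM in HF and 3.07 CPM in IFE. The cytokine gene Il1a had a peak 5.45 kb from it at 11.7 CPM in Lgr5 Epcam-, 21.3 and 19.8 CPM in Lgr5 Epcam+ and 19.2 CPM in K14 Epcam+, against 1.48 CPM in HF and 1.16 CPM in IFE. The proteolysis genes Plau (urokinase, 3 peaks), Plaur (2), Mmp10 (1) and Mmp13 (2), the Egf family ligands Areg (1), Ereg (3) and Hbegf (1), and Tnc (tenascin C, 3) make up the rest. The peak over the Plaur promoter printed above had 37.6 CPM in Lgr5 Epcam-, 54.2 and 57.9 CPM in Lgr5 Epcam+ and 45.5 CPM in K14 Epcam+, against 6.24 CPM in HF and 6.38 CPM in IFE. None of the stress keratins Krt6a, Krt6b, Krt16 and Krt17, the Sprr genes or S100a8 and S100a9 had a chosen peak.

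EMT transcription factors came second, with 19 of 232 peaks (8.19%) at 8 of 12 genes. Snai1, a zinc finger repressor of E-cadherin, had 5 of its 18 peaks chosen. The one over the start of the gene, chr2:167537462-167538585, had 22.0 CPM in Lgr5 Epcam-, 22.3 and 23.6 CPM in Lgr5 Epcam+ and 15.9 CPM in K14 Epcam+, against 4.57 CPM in HF and 4.70 CPM in IFE. Another peak assigned to Snai1, 9.64 kb away, had 26.4 CPM in Lgr5 Epcam-, 15.4 and 12.7 CPM in Lgr5 Epcam+ and 10.3 CPM in K14 Epcam+, against 1.42 CPM in HF and 0.986 CPM in IFE. That peak itself holds a RefSeq start site, so its assignment to Snai1 rests on distance alone. In Epcam+ as in Epcam- tumour cells, these elements were above both normals, as the rule requires. Zeb2 had 4 chosen peaks, Tcf4 3, Twist2 and Hmga2 2 each, and Snai3, Twist1 and Sox4 1 each. The Twist1 peak, which overlaps the gene and holds a start site, had 30.3 CPM in Lgr5 Epcam-, 20.03 and 17.7 CPM in Lgr5 Epcam+ and 14.9 CPM in K14 Epcam+, against 3.52 CPM in HF and 3.13 CPM in IFE. Snai2, Zeb1, Prrx1 and Foxc2 had none. The 21 peaks of Zeb1 together had 144 CPM in Lgr5 Epcam-, 62.8 and 98.1 CPM in Lgr5 Epcam+ and 68.7 CPM in K14 Epcam+, against 61.0 CPM in HF and 34.5 CPM in IFE. At Prrx1, all 15 peaks together had 101 CPM in Lgr5 Epcam-, 66.0 and 49.0 CPM in Lgr5 Epcam+ and 66.0 CPM in K14 Epcam+, against 24.0 CPM in HF and 19.1 CPM in IFE, although no single peak met the margin.

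**Figure D3:**
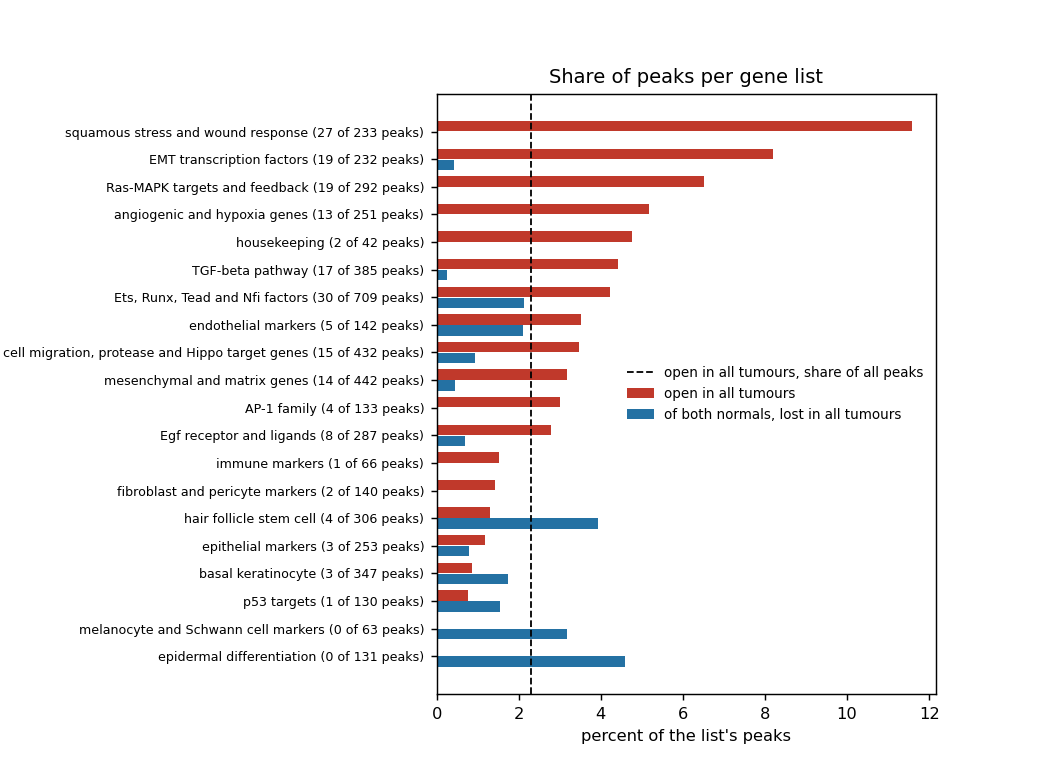
Percent of the peaks assigned to each gene list that were open in all tumours (red) and, by the same margin in the other direction, open in both normals and lost in all tumours (blue); the dashed line marks the 2.29% of all peaks. Wound response, EMT factors and Ras-MAPK targets stand highest in red, and epidermal differentiation and melanocyte and Schwann cell markers have no red bar.

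Targets and feedback regulators of Ras and MAP kinase signalling had 19 of 292 peaks chosen (6.51%), at 9 of 18 genes. Dusp6, the phosphatase that inactivates Erk, had 7 of its 17 peaks, with a median of 16.0 CPM in Lgr5 Epcam-, 20.4 and 28.7 CPM in Lgr5 Epcam+ and 18.7 CPM in K14 Epcam+, against 3.52 CPM in HF and 3.01 CPM in IFE. Dusp10 had 3, Dusp4 and Phlda1 2 each, and Spry2, Etv4, Myc, Epha2 and Ier3 1 each. The Phlda1 peak was among the most open, at 50.8 CPM in Lgr5 Epcam-, 67.5 and 81.9 CPM in Lgr5 Epcam+ and 57.9 CPM in K14 Epcam+, against 8.52 CPM in HF and 6.67 CPM in IFE. Dusp5, Spry1, Spry4, the Spred genes, Etv5, Ccnd1 and Egr1 had none. Of the Egf receptors and ligands, 8 of 287 peaks (2.79%) were chosen, close to the share of all peaks. They were at the ligand genes Ereg (3), Nrg1 (3), Areg (1) and Hbegf (1), and none was at Egfr, Erbb2, Erbb3 or Erbb4.

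Among transcription factor genes, 3 of 11 of the AP-1 family had a chosen peak. They are Fos (1), Fosl1 (1) and Atf3 (2), and the family's share of peaks was 3.01%. Fosl1, the Fra-1 subunit, had 23.8 CPM in Lgr5 Epcam-, 25.2 and 11.1 CPM in Lgr5 Epcam+ and 17.5 CPM in K14 Epcam+, against 1.36 CPM in HF and 0.580 CPM in IFE, at a peak 1.93 kb away. None was assigned to Jun, Junb, Jund, Fosb or Fosl2. The Ets, Runx, Tead and Nfi factors had 30 of 709 peaks chosen (4.23%) at 11 of 21 genes, and 15 lost. Runx2 (6), Runx1 (5), Etv6 (5), Elk3 (4) and Runx3 (3) led this list. Runx1, a core binding factor of hair follicle and blood stem cells, had 14.6 CPM in Lgr5 Epcam-, 29.0 and 11.96 CPM in Lgr5 Epcam+ and 16.2 CPM in K14 Epcam+, against 1.61 CPM in HF and 1.10 CPM in IFE, at a peak inside the gene. Elk3, an Ets factor regulated by Erk, had 15.7 CPM in Lgr5 Epcam-, 21.4 and 20.3 CPM in Lgr5 Epcam+ and 20.7 CPM in K14 Epcam+, against 0.988 CPM in HF and 1.04 CPM in IFE. Lost peaks stood at Nfib (6), Ets2 (5), Nfia (3) and Cbfb (1).

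In the TGF-beta pathway, 17 of 385 peaks (4.42%) at 7 of 17 genes were chosen. Ltbp1, which stores latent TGF-beta in the matrix, had 6, the signal transducer Smad3 and the inhibitor Smad7 had 3 each, Ltbp2 had 2 and Tgfb2, Tgfbi and Ccn1 had 1 each. The Smad7 peak with the largest margin had 14.5 CPM in Lgr5 Epcam-, 15.9 and 15.03 CPM in Lgr5 Epcam+ and 15.8 CPM in K14 Epcam+, against 1.36 CPM in HF and 0.928 CPM in IFE. Angiogenic and hypoxia genes had 13 of 251 (5.18%) at 6 of 12 genes. They are Nrp2 (3), Flt1 (3), Vegfc (2), Pgf (2), Angptl4 (2) and Ndrg1 (1). The peak 29.4 kb from Vegfc, the lymphatic growth factor, had 26.7 CPM in Lgr5 Epcam-, 29.9 and 28.8 CPM in Lgr5 Epcam+ and 23.6 CPM in K14 Epcam+, against 1.48 CPM in HF and 2.43 CPM in IFE.

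Migration, protease and Hippo target genes had 15 of 432 (3.47%), at 8 of 20 genes, with Cd44 (5 of 59), a hyaluronan receptor, first and Plat, Pdpn and Itgb1 next with 2 each. The Cd44 peak with the largest margin had 39.3 CPM in Lgr5 Epcam-, 52.7 and 38.3 CPM in Lgr5 Epcam+ and 43.5 CPM in K14 Epcam+, against 6.36 CPM in HF and 2.72 CPM in IFE. Mesenchymal and matrix genes had 14 of 442 (3.17%), at 9 of 24 genes. The peak over the start of Vim, the intermediate filament protein of mesenchymal cells, had 47.0 CPM in Lgr5 Epcam-, 30.4 and 30.5 CPM in Lgr5 Epcam+ and 26.3 CPM in K14 Epcam+, against 7.47 CPM in HF and 5.57 CPM in IFE. Fn1, Cdh2, Col1a1, Col1a2, Col3a1 and Postn had no chosen peak.

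**Figure D4:**
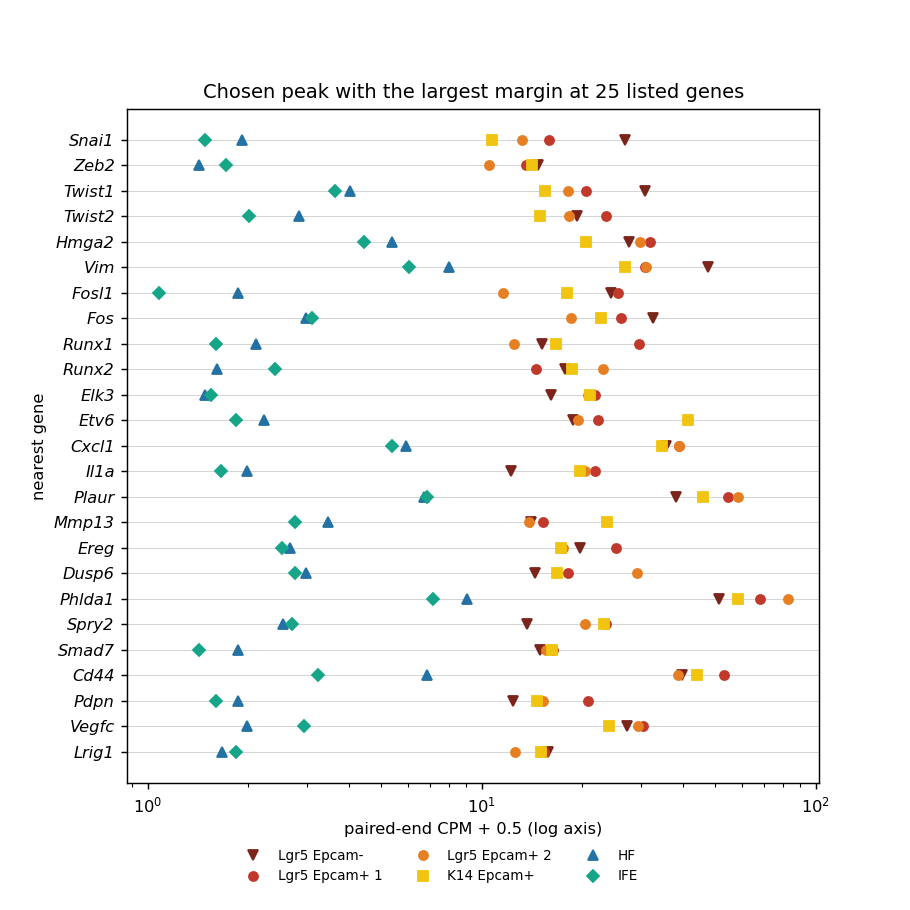
Paired-end CPM + 0.5 on a log axis in the 6 samples for the chosen peak with the largest margin at each of 25 listed genes, ordered by role from EMT factors at the top to Lrig1 at the bottom. At every gene the 4 tumour samples lie to the right of both normals, as the rule requires; the tumour order differs between genes, with Lgr5 Epcam- highest at Snai1, Twist1 and Vim and lowest at Il1a, Plaur and Phlda1.

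Identity genes of normal skin had few. None of the 131 peaks at 14 epidermal differentiation genes was chosen and 6 (4.58%) were lost, against 1.47% of all peaks. Hair follicle stem cell genes had 4 of 306 (1.31%), at Lrig1 (2) and Tcf7l2 (2), and 12 lost (3.92%). Basal keratinocyte genes had 3 of 347 (0.865%), all at Dst, and p53 targets 1 of 130 (0.769%), at Pmaip1. Housekeeping genes had 2 of 42 (4.76%), near Actb and inside Tbp, which shows how a short list can exceed the background share with few peaks. A gene could hold both kinds of peak: 246 of the 2120 genes with a chosen peak (11.6%) also had a lost one, which is 17.1% of the 1437 genes with a lost peak, and 8.20% of all genes had a lost peak. Foxp1, a forkhead factor, had 7 chosen and 2 lost among 108.

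Markers of other cell types were counted in the same way. The immune list had 1 chosen peak of 66 (1.52%, against 2.29% of all peaks), 23.1 kb from Ptprc (CD45). The endothelial list had 5 of 142 (3.52%), at Flt1, Pecam1 and Erg, which are 3 of 12 genes, against 12.1% of all genes. The fibroblast and pericyte list had 2 of 140 (1.43%), both at Col6a3, and the melanocyte and Schwann cell list 0 of 63. All peaks of the immune list together had between 239 and 307 CPM in the 4 tumours, against 185 CPM in HF and 244 CPM in IFE. Within it, the 16 peaks of Ptprc had 57.0 CPM in Lgr5 Epcam-, 74.6 and 97.5 CPM in Lgr5 Epcam+ and 84.6 CPM in K14 Epcam+, against 34.8 CPM in HF and 27.4 CPM in IFE, so that each tumour was above both normals. Ptprc is 1 of 13 list genes with a peak. Over the whole list, Lgr5 Epcam+ 1 and 2 had 260 and 293 CPM and K14 Epcam+ had 307 CPM, above both normals. Lgr5 Epcam- had 239 CPM, above HF and below the 244 CPM of IFE. The endothelial list had between 592 and 752 CPM in the tumours, against 532 CPM in HF and 548 CPM in IFE. The fibroblast and pericyte list had 811 CPM in Lgr5 Epcam- and between 489 and 567 CPM in the other tumours, against 518 CPM in HF and 488 CPM in IFE. The melanocyte and Schwann cell list had between 171 and 213 CPM in the tumours, against 350 CPM in HF and 262 CPM in IFE. No gene of these lists with a peak was at 0 in any sample, and Fcer1g, Lyz2 and Tyr were among the genes with no peak. The part of other cells in the chosen peaks was not tested. The epithelial list had 3 of 253 (1.19%), at Krt18 (2) and Cldn4 (1).

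The AP-1 letters were found in 42 of the 172 promoter windows inside chosen peaks (24.4%, 95% Wilson interval 18.6% to 31.4%). Of the 15069 windows inside any peak the rule could choose, 5.73% held them, and of all 31396 windows 5.26%. Counted by peak, 40 of 150 chosen peaks (26.7%) and 744 of 11980 other peaks (6.21%) had such a window. Windows in chosen peaks had fewer CG pairs, a median of 7 against 19, and so were also compared by CG content. With at most 7 CG pairs, 36.4% of 88 windows in chosen peaks held the letters, against 15.03% of 3088 windows in any peak. Above 7, the shares were 11.9% of 84 and 3.33% of 11981. Of windows in lost peaks 3.85% of 78 held them. Of 25 windows in peaks open in the Epcam+ tumour samples only, 28% held them (95% Wilson interval 14.3% to 47.6%), an interval that overlaps that of the chosen peaks. The share was 18.8% with a margin of 1 in the rule, 39.7% with a margin of 2, 28.3% on single-end counts and 21.3% over windows with any overlap with a chosen peak.

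Some of the other 14 motifs searched on both strands also differed in share. The Runx motif TGTGGTT was in 8.72% of the windows in chosen peaks, against 3.98% of windows in any peak. With at most 7 CG pairs its shares were 13.6% and 7.58%, and above 7 they were 3.57% and 3.05%. For the Tead motif, with the letters GGAATG, the share was 19.8%, against 12.9%. With at most 7 CG pairs it was 27.3% of the windows in chosen peaks (95% Wilson interval 19.1% to 37.4%), against 19.9% in any peak, and above 7 it was 11.9%, against 11.1%. The Ets motif CCGGAAGT was in 1.74% of the windows in chosen peaks, against 7.20% of windows in any peak. This order depended on CG content: the share was 2.27% against 0.745% with at most 7 CG pairs, and 1.19% against 8.86% above 7. Klf factors bind letters such as GGGCGTG, which were in 7.56%, against 14.5%, while above 7 CG pairs the shares were 15.5% and 17.6%. Finally, the Gata motif AGATAA was in 5.23%, against 6.31%, and in 20.5% of the windows of lost peaks. With at most 7 CG pairs the Gata shares were 7.95% in chosen peaks and 13.4% in any peak, and above 7 they were 2.38% and 4.48%. Zeb factors bind CACCTG, found in 15.7%, against 19.4% of windows in any peak, and the Sox motif ACAATG was in 12.2%, against 7.64%. The Tcf motif CTTTGAT was in 4.07%, against 2.67%, and CRE, written TGACGTCA, in 3.49%, against 3.06%. With at most 7 CG pairs the Tcf shares were 4.55% and 4.11%, and above 7 they were 3.57% and 2.30%. The Cebp motif TTGCGCAA was in 1 window. None of the 172 windows held the Grhl motif AACCGGTT, the Smad motif GTCTAGAC or the NF-kB and NF-I motifs, each of which was in at most 0.246% of windows in any peak. The letters of none of these motifs contain those of another. Motifs in the chosen peaks outside promoters were not analysed here.

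Of the peaks whose promoters are printed above besides Plaur, that of Procr had 17.2 CPM in Lgr5 Epcam-, 36.5 and 32.2 CPM in Lgr5 Epcam+ and 24.2 CPM in K14 Epcam+, against 2.29 CPM in HF and 2.67 CPM in IFE. The F3 peak had 24.3 CPM in Lgr5 Epcam-, 31.1 and 20.7 CPM in Lgr5 Epcam+ and 24.3 CPM in K14 Epcam+, against 5.68 CPM in HF and 2.78 CPM in IFE. The Mmp1b peak had 12.9 CPM in Lgr5 Epcam-, 18.3 and 15.1 CPM in Lgr5 Epcam+ and 25.2 CPM in K14 Epcam+, against 2.41 CPM in HF and 2.61 CPM in IFE.

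Among the tumours, Lgr5 Epcam- was set against Lgr5 Epcam+. The comparison asks what differs between tumour cells without and with the epithelial marker. With edgeR's quasi-likelihood test over all peaks and Benjamini-Hochberg adjustment, 6 of the 3973 were higher and 176 lower in Lgr5 Epcam- at an adjusted p under 0.05 (0.151% and 4.43%), against 6.66% higher and 5.31% lower of all peaks. The median log2 ratio was -0.37, against -0.05 for all peaks, and 84.3% of the chosen peaks differed by less than 1 in log2. The rule read these tumour values too and asked for a high value in Lgr5 Epcam-, which limits how far they can differ in either direction, so these counts and the median describe the set and nothing is drawn from them. It kept out 1294 peaks in which all 3 Epcam+ samples exceeded Lgr5 Epcam-, HF and IFE by 1.5 or more, with a median of 2.22 CPM in Lgr5 Epcam-. Only the Lgr5 Epcam+ pair is replicated, so Lgr5 Epcam- was assumed to vary as that pair does. Scaling by total counts moved the median of all peaks to 0.14 and gave 35 higher and 180 lower, against 9.65% higher and 5.74% lower of all peaks. DESeq2 called 4 higher and 106 lower, against 3.21% and 5.84% of all peaks, and 3 higher and 97 lower calls were made by both tools. The epithelial marker list summed to 762 CPM in Lgr5 Epcam-, against 2422 and 1825 CPM in Lgr5 Epcam+, a difference whose part in these calls was not tested.

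**Figure D5:**
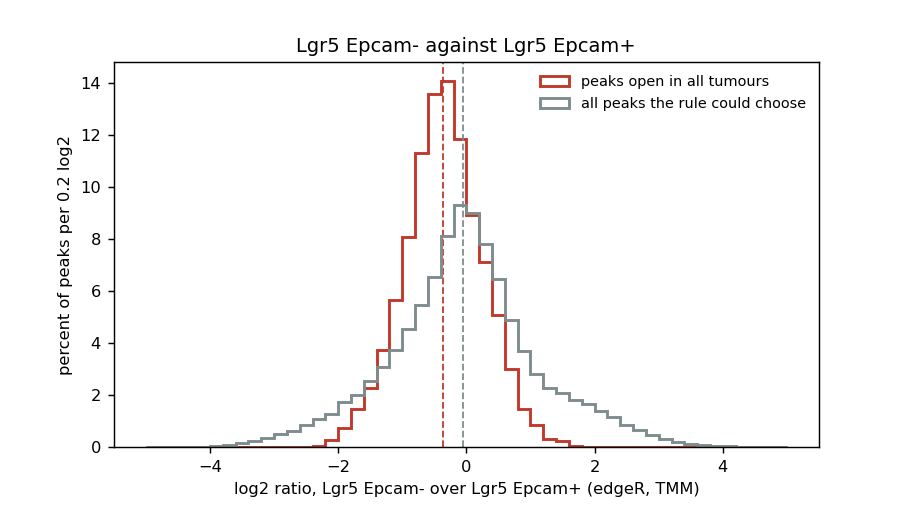
Distribution of the log2 ratio of Lgr5 Epcam- over Lgr5 Epcam+ for the peaks open in all tumours (red) and all peaks the rule could choose (grey), as percent of peaks per 0.2 log2; dashed lines mark the medians, -0.37 and -0.05. The red distribution is narrower and lies to the left of the grey one.

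Of the 182 calls in either direction, 50 had no gene within 50 kb. Among the lower calls, the 6 largest falls are named first. The peak with the firmest fall among the first 6, at chr8:34590800-34591975 and 216 kb from Dusp4, had 10.1 CPM in Lgr5 Epcam-, against 47.1 and 43.9 CPM in Lgr5 Epcam+ (log2 ratio -2.14, SE 0.35, edgeR adjusted p 0.00368). A peak inside Gtf2i had 9.76 CPM in Lgr5 Epcam-, against 46.3 and 39.9 CPM in Lgr5 Epcam+ (log2 ratio -2.14, SE 0.37, edgeR adjusted p 0.00470). The largest fall was 133 kb from Atxn1, at 3.87 CPM in Lgr5 Epcam-, against 15.4 and 20.9 CPM in Lgr5 Epcam+ (log2 ratio -2.40, SE 0.59, edgeR adjusted p 0.0195). In all 3 peaks the Lgr5 Epcam- value was below both Lgr5 Epcam+ values. The others of the first 6 were 176 kb from Nup35, 102 kb from Tmem167 and 8.89 kb from Cnot6, with log2 ratios of -2.32, -2.17 and -2.12. Pmepa1 had 3 lower calls, and Pthlh (the parathyroid hormone-like peptide), Slpi (a protease inhibitor), Bin1, Macrod2 and Olfr432 had 2 each.

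Of the 174 chosen peaks at 83 genes of the lists, 6 were called (3.45%), against 182 of all 3973 (4.58%); all 6 were lower in Lgr5 Epcam-, as were 176 of the 182. A peak inside Nrg1, which codes for a ligand of the Egf receptor family, had 11.6 CPM in Lgr5 Epcam-, against 31.3 and 31.5 CPM in Lgr5 Epcam+ (log2 ratio -1.54, SE 0.39, edgeR adjusted p 0.0224). The peak near Ptprc also fell, with 9.76 CPM in Lgr5 Epcam-, against 24.1 and 32.7 CPM in Lgr5 Epcam+ (log2 ratio -1.57, SE 0.42, edgeR adjusted p 0.0271). Those of Itga3, an integrin subunit, Dusp6, Ltbp1 and Snai3 had log2 ratios of -1.42, -1.36, -1.35 and -1.13, with edgeR adjusted p from 0.0200 to 0.0439, and DESeq2 did not call them (adjusted p 0.0668 to 0.152).

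All 6 higher calls are named here. The largest was at chr9:61016286-61017351, 136 kb from Uaca, with 97.3 CPM in Lgr5 Epcam-, against 10.2 and 8.59 CPM in Lgr5 Epcam+ (log2 ratio 2.78, SE 0.35, edgeR adjusted p 0.00106). It had 11.8 CPM in K14 Epcam+, 2.22 CPM in HF and 1.10 CPM in IFE. A peak 28.1 kb from Gm8220 had 9.76 CPM in Lgr5 Epcam-, against 1.35 and 1.43 CPM in Lgr5 Epcam+ (log2 ratio 2.42, SE 0.55, edgeR adjusted p 0.0141), and one inside Tmem117 25.7 CPM, against 5.84 and 4.02 CPM (log2 ratio 1.94, SE 0.55, edgeR adjusted p 0.0355). These 3 were called by DESeq2 as well. The Gm8220 peak had 5.97 CPM in K14 Epcam+, 0 CPM in HF and 0.116 CPM in IFE. Its Lgr5 Epcam+ values were below the medians of all peaks there, 2.08 CPM in Lgr5 Epcam+ 1 and 2.29 CPM in Lgr5 Epcam+ 2. The rule thus does not ask for a strong peak in every tumour. Peaks inside Ttc28 and Vcam1, a vascular adhesion molecule, and near Flnc, an actin crosslinker, had log2 ratios of 1.502, 1.47 and 1.43, with edgeR adjusted p between 0.0455 and 0.0495 and DESeq2 adjusted p between 0.0568 and 0.0637. The peak 9.64 kb from Snai1, the Vim peak and the Twist1 peak, highest in Lgr5 Epcam-, were not among the calls.

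Tumours of the Lgr5 and K14 lines were compared to ask what depends on the cell in which the tumour began. The rule asked for high values in all of these samples, so likeness among the chosen peaks is in part set by it. No chosen peak differed between Lgr5 Epcam+ and K14 Epcam+ at an adjusted p under 0.05 by edgeR (0 higher and 0 lower, against 0% higher and 0.00807% lower of all peaks), while 151 had an unadjusted p under 0.05. DESeq2 also called 0 higher and 0 lower, against 0.0161% higher and 0.0138% lower of all peaks, with 92 at an unadjusted p under 0.05. The smallest adjusted p by edgeR was 0.588. On paired-end counts alone, which lack the shortfall of K14 Epcam+ on chromosomes 15 to 19, edgeR also called 0 higher and 0 lower. The median log2 ratio was 0.28, against 0.03 for all peaks, and 77.4% of the chosen peaks were above 0. The log2 ratios ran from -1.75 to 2.08, and 96.5% were within 1 of 0. Their median SE was 0.49, so the lack of calls does not show that the peaks are alike in these tumours. Without Lgr5 Epcam+ 1 the median log2 ratio of CPM was 0.19, and without Lgr5 Epcam+ 2 it was 0.29, so the sign was the same with either sample. An intronic Etv6 peak was highest in K14 Epcam+, at 21.8 and 18.9 CPM in Lgr5 Epcam+, against 41.0 CPM in K14 Epcam+, and a peak near Epha2 split the pair, at 44.4 and 13.1 CPM in Lgr5 Epcam+, against 28.7 CPM in K14 Epcam+.

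Between the normals, 1 sample stood against 1 and no test was made. The chosen peaks were higher in HF than in IFE in 2606 cases (65.6%), against 55.8% of all peaks. That share depends on scaling: it was 56.5% with TMM factors and 54.4% with DESeq2 size factors, so no order of the normals is drawn from it.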

How the data were processed

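The deposited tables hold raw counts per peak, made by the authors for 6 samples in 2 runs each, on mm10; Bowtie2, HOMER, bedtools and HTSeq are named in the submitters' processing notes, with read filters and peak calling not given in the sources used here. Lines naming no peak held 51.7% to 79.1% of reads and were left out. The Lgr5 Epcam+ sample without a number in its title is called 1. Members were chosen on paired-end CPM. For tests, both runs of a sample were summed and compared with edgeR 4.0.16 (filterByExpr minimum count 10, TMM, quasi-likelihood fit of 5 groups, R 4.3.3), Benjamini-Hochberg threshold 0.05; DESeq2 1.42.0 was an alternative. Nothing says that the Lgr5 Epcam+ samples came from separate mice, so a p-value covers the spread of that pair alone, and this may be technical. Peaks were assigned to the nearest protein-coding gene of RefSeq GRCm38.p6 within 50 kb; start sites of chromosome 18 were not used. Intervals cover counting error only. Named peaks were those with the largest margin (12, and 10 at gene ends), at the 15 genes with most members, nearest the margin, or called with the largest ratio, and all listed genes with a member; others are said to be chosen after their values were seen. The members and lists were chosen with earlier results of these data known. One allele of the tumour mice and one marker gene are not reported here.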

Additional observations from a re-analysis of the deposited data

Results flagged for a closer look

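The rule covered chromosomes 1 to 19, and the peaks of chromosome X lie outside it. Of 3562 peaks there, 49 met the same margin (1.38%, against 2.29% of the peaks the rule could choose), with a median single-end margin of 0.933. They were looked at because they carry a signal in data that the comparisons above do not use. The largest was 132 kb from Phex, with 13.7 CPM in Lgr5 Epcam-, 13.3 and 14.5 CPM in Lgr5 Epcam+ and 11.7 CPM in K14 Epcam+, against 0.741 CPM in HF and 0.696 CPM in IFE. None of the 75 peaks of chromosomes 1 to 19 dropped for their paired-end counts met the margin.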

How the results depend on the processing

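The number of peaks kept was 7959 with a margin of 1, 1732 with a margin of 2 and 2590 on single-end counts, of which 2332 were among the 3973; it stayed within 1.5 times of 3973 on summed counts, with either other pseudocount and with TMM or DESeq2 scaling. Leaving out 1 sample at a time gave 4309 to 7006 (6994 without Lgr5 Epcam- and 7006 without HF). For Lgr5 Epcam- against Lgr5 Epcam+, higher calls were 35 with total-count scaling and 12 on paired-end counts, lower calls 106 with DESeq2, and the median log2 ratio -0.17 with total-count scaling; leaving out either Lgr5 Epcam+ sample gave -0.38 to -0.25, as a log2 ratio of CPM with no test. For Lgr5 Epcam+ against K14 Epcam+, single-end counts gave 3 higher calls, total-count scaling a median of 0.088, and leaving out either sample 0.19 to 0.29. No median reversed. The share of peaks higher in HF was 72.3% on single-end counts, 73.1% on summed counts, 56.5% with TMM and 54.4% with DESeq2 factors, settings chosen after seeing the data. The share far from genes was 39.97% with a limit of 10 kb and 13.4% with 100 kb, and the share at gene ends 4.85% with a margin of 2. The AP-1 share was 39.7% with a margin of 2, 18.8% with a margin of 1, 28.3% on single-end counts and 21.3% with any overlap, also chosen after seeing the data. Of the recomputed margins of 20 named peaks, 74 moved by more than the SD of the Lgr5 Epcam+ pair, 46 did not, and none reversed. The causes were not tested. A planned motif count in the central 300 bases of peaks was not run, since peak sequence was not used here. No paired analysis was possible because the groups compared share fewer than 2 replicate numbers. Depth limits the normal values, at medians of 31 (HF) and 28 (IFE) counts per peak, and each normal group is 1 sample.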
